A study of Sus scrofa with 6 samples.

Results

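The family of miR-28, miR-151 and miR-708 comprises 3 microRNA (miRNA) hairpins, each read as a 5p and a 3p arm. Its members were taken by name from the deposited table, which gave 6 entries (miR-28-5p, miR-28-3p, miR-151-5p, miR-151-3p, miR-708-5p and miR-708-3p) of 1645 entries in all, of which 358 are known pig miRNAs and 1287 are predicted. Small RNA was sequenced from cultured immature Sertoli cells, which line the seminiferous tubules and support germ cells, of pig testes at 80 to 90 days of gestation. All cells were seeded and grown for 6 h in medium with 10% fetal bovine serum. Cells of the AA2P group then received 250 µM AA2P, the sesquimagnesium salt hydrate of L-ascorbic acid 2-phosphate and a stable form of vitamin C (n = 3 libraries), and control cells received none (n = 3 libraries). How long AA2P was left on the cells, and whether replicate libraries derive from separate cultures or animals, is not stated in the labels. The p-values therefore reflect the spread among these 6 libraries, which may be technical.

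A miRNA hairpin yields 1 mature strand from each of its sides, and the strand held by an Argonaute protein pairs through its seed, a short stretch near the 5′ end, with target messenger RNAs. The 5p strands of miR-28 and miR-708 share a seed, and that of miR-151 carries the same stretch slightly offset, which is why the 3 hairpins are treated as relatives. Their 3p strands are not grouped with the 5p strands by seed. All 3 hairpins lie in introns of protein-coding genes in human, where repeat annotation places them in LINE-2 elements, a family of old transposons. In the RefSeq annotation of the pig assembly Sscrofa11.1, MIR28 lay within the bounds of LPP, which encodes a focal adhesion protein. MIR151 lay within PTK2, which encodes focal adhesion kinase, an enzyme of cell contacts that include the junctions between Sertoli cells. MIR708 lay within TENM4, which encodes the transmembrane protein teneurin-4. Each was the 1 annotated miRNA within its host, so no miRNA of the same host could be set beside it, and the host transcripts were not measured. In human cells, miR-151-5p represses the RhoGDI gene ARHGDIA and favours migration of liver cancer cells. In mouse cells miR-708 is induced with its host under endoplasmic reticulum stress.

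Over all listed entries, the libraries held 26.9 to 36.0 Mreads (M for mega) in the AA2P group and 25.8 to 32.2 Mreads in the control group. These totals were read from the smallest step between values of a library. Entries with identical values, such as miR-9 and miR-9-1, each count in them. Levels are in TPM, which here behave as reads per fixed library total, with no length term seen. The floor of a library, which is the upper limit left by a count of 0, is 3 reads. It equals 0.0834 to 0.112 TPM in AA2P libraries and 0.0930 to 0.116 TPM in control libraries. The 4 entries of gonadal somatic markers summed to 1210 to 1368 TPM with AA2P and 1140 to 1246 TPM in controls. Of these, miR-140-3p stood at 1178 ± 69.9 TPM with AA2P and 1106 ± 61.5 TPM in controls, while miR-202-5p stood at 0.42 to 0.68 TPM and 0.40 to 1.01 TPM, and miR-202-3p was listed at 0 in 5 of 6 libraries. The 9 muscle and myoid entries summed to 219.5 to 308 TPM with AA2P and 168 to 228 TPM in controls, mostly miR-1. The 2 endothelial entries summed to 86.8 to 111 TPM with AA2P and 98.4 to 112 TPM in controls, mostly miR-126-3p. The 6 blood entries summed to 2.56 to 11.1 TPM with AA2P and 1.17 to 1.81 TPM in controls. Of these, miR-223 stood at 5.40 TPM in AA2P replicate 1 and at most 0.06 TPM in each other library. The 1 blood entry tested, miR-142-3p, stood at 2.68, 1.47 and 1.79 TPM with AA2P and 0.43, 0.50 and 0.59 TPM in controls. It was called higher in the deposited TPM (log2 fold change 0.96, adjusted p = 0.0293 by limma). However, it reached the 1 TPM in 3 or more libraries needed for testing only through its AA2P libraries. That call is therefore no separate evidence of a rise. The 1 listed germ cell marker, miR-371-5p, reached at most 0.11 TPM in AA2P libraries and 0.04 TPM in control libraries. The part of other cell types in the family's levels was not tested, and in bulk RNA fewer cells that hold a miRNA and less of it per cell cannot be told apart.

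Of the 6 members, the 3p arms of miR-28 and miR-151 made up nearly all of the family's reads, and miR-708 lay near the limit of detection. miR-28-3p stood at 3274, 3043 and 2966 TPM in the AA2P libraries, against 3325, 3309 and 3061 TPM in the control libraries. miR-151-3p stood at 3265, 2634 and 2894 TPM in the AA2P libraries, against 3364, 3581 and 3026 TPM in the control libraries. For both of these arms the 2 groups overlapped. They held ranks 30 to 39 among known miRNAs in AA2P libraries and ranks 28 to 32 in control libraries.

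miR-28-5p, the arm that carries the family seed, was far less abundant than its partner arm, with 401.2, 333.7 and 315.4 TPM in the AA2P libraries, against 295.5, 305.1 and 288.7 TPM in the control libraries. All 3 AA2P libraries lay above all 3 control libraries, as they did for 40.4% of the entries tested below. miR-151-5p stood at 80.2, 48.0 and 60.1 TPM in the AA2P libraries, against 59.4, 70.3 and 56.4 TPM in the control libraries. Its AA2P libraries included both the highest and the lowest value of the 6, so the groups overlapped.

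miR-708 was barely detected, on either arm and in either group. miR-708-5p, the closest relative of miR-28-5p by seed, had 0.15, 0.14 and 0.31 TPM in the AA2P libraries, against 0.04, 0.16 and 0.13 TPM in the control libraries, which correspond to 4, 5 and 10 reads and to 1, 5 and 4 reads. Pooled over a group, these were 19 reads or 0.199 TPM with AA2P (95% exact Poisson interval 0.120 to 0.311) and 10 reads or 0.113 TPM in controls (0.0542 to 0.208). These intervals overlapped, and a difference in level between the groups was not tested. miR-708-3p had 0.07, 0.03 and 0.03 TPM with AA2P and 0.08, 0.03 and 0.03 TPM in controls, all below the level of 3 reads of their library, so no fold change is given. Pooled, the 3p arm had 4 reads in each group, or 0.0420 TPM with AA2P (95% exact Poisson interval 0.0114 to 0.107) and 0.0452 TPM in controls (0.0123 to 0.116). The 5p arm had more pooled reads than the 3p arm in both groups. In the AA2P group the interval of the 5p arm lay above that of the 3p arm, and in controls the intervals of the arms overlapped. Of the 19 AA2P reads of the 5p arm, 10 came from AA2P replicate 3. A difference in arm use between the groups was not tested for miR-708. Floors and intervals cover counting error only, and the labels name no molecular identifiers for the reads.

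**Figure D1:**
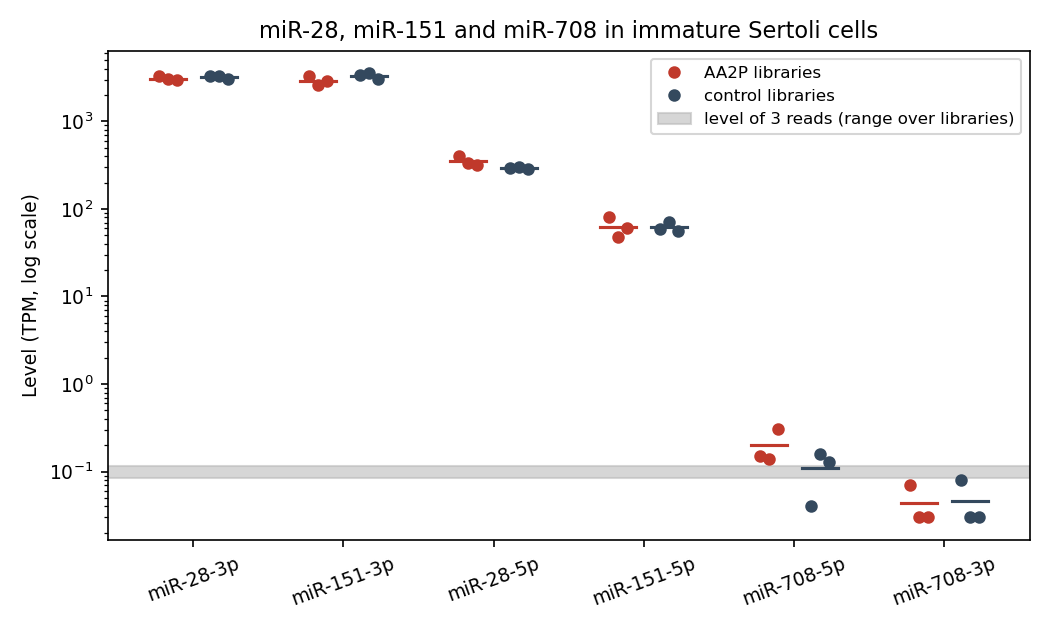
Level in TPM (log axis) of the 6 members in each library, with AA2P libraries left of control libraries, short bars for group means and a grey band for the level of 3 reads. miR-28-3p and miR-151-3p sit between 2634 and 3581 TPM in both groups, miR-28-5p between 288.7 and 401.2 TPM, miR-151-5p between 48.0 and 80.2 TPM, and both arms of miR-708 around the grey band.

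In order of level, then, miR-28-3p and miR-151-3p stood together at the top, and the order of their means was not the same in the 2 groups. The level ratio of miR-151-3p to miR-28-3p was 0.997, 0.866 and 0.976 in the AA2P libraries, against 1.01, 1.08 and 0.989 in the control libraries. In each group the difference between these neighbours was within their spread. Each lower step, to miR-28-5p and then to miR-151-5p, exceeded the range of both groups. The family summed to 7021, 6058 and 6235 TPM in the AA2P libraries (6438 ± 512, SD, n = 3), against 7045, 7266 and 6433 TPM in the control libraries (6915 ± 432, SD, n = 3), a share of 0.644% and 0.691% of the total over all listed entries. These sums overlapped. The miR-28 hairpin gave 53.6% ± 1.88 of the family's TPM with AA2P and 51.1% ± 1.20 in controls, and the miR-151 hairpin 46.4% ± 1.88 and 48.9% ± 1.20 (SD, n = 3 each), while miR-708 gave 0.00380% and 0.00227%.

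Whether AA2P changed any member was asked over the 433 entries that reached 1 TPM in 3 or more libraries, by limma on log2(TPM + 1). The 2 miR-708 arms did not reach this level and were not tested. In the deposited TPM, 0 of the 4 tested members passed an adjusted p of 0.05, and 0 had an unadjusted p under 0.05, where over all tested entries 24.7% were called (19.9% higher and 4.85% lower with AA2P) and 40.0% had an unadjusted p under 0.05.

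miR-28-5p averaged 350 ± 45.2 TPM with AA2P and 296 ± 8.27 TPM in controls (SD, n = 3 each). Its log2 fold change was 0.23 (SE 0.106, 95% interval -0.026 to 0.489) with an adjusted p of 0.151. Its groups did not overlap, as for 49.7% of all tested entries (40.4% with AA2P higher). Without AA2P replicate 1, the library with the highest level of this arm and of the blood markers, the log2 fold change was 0.13.

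miR-28-3p averaged 3094 ± 161 TPM with AA2P and 3232 ± 148 TPM in controls (SD, n = 3 each). Its log2 fold change was -0.063 (SE 0.0711, 95% interval -0.236 to 0.110) with an adjusted p of 0.532. On the deposited scale it was among the steadiest entries, with an SD of log2(TPM + 1) over all 6 libraries of 0.0720, rank 2 of 433 counted from the lowest. With trimmed-mean scaling that SD was 0.199 and its rank 172, and with quantile normalization they were 0.0676 and 8. Its rank was 161 with median-of-ratios scaling, 180 without miR-21-5p in the totals and 109 without the 10 most abundant miRNAs. The steadiness thus depended on the scaling.

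miR-151-3p averaged 2931 ± 317 TPM with AA2P and 3324 ± 280 TPM in controls (SD, n = 3 each). Its log2 fold change was -0.18 (SE 0.107, 95% interval -0.445 to 0.077) with an adjusted p of 0.246. miR-151-5p averaged 62.8 ± 16.3 TPM with AA2P and 62.0 ± 7.28 TPM in controls, with a log2 fold change of -0.0087 (95% interval -0.496 to 0.478) and an adjusted p of 0.974. The interval of miR-151-5p was the widest of the 4, and a change of up to about 0.5 on the log2 scale in either direction would lie within it.

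These values depended on how the libraries were scaled to each other. In the deposited TPM the tested entries as a whole had a median log2 fold change of 0.25, so miR-28-5p lay at -0.016 relative to it, and miR-28-3p, miR-151-5p and miR-151-3p lay at -0.31, -0.26 and -0.43 relative to it, at the 23.7, 26.9 and 18.8 percentiles of all log2 fold changes. The most abundant entry, miR-21-5p, averaged 410890 TPM with AA2P and 520562 TPM in controls. Its log2 fold change was -0.35 (adjusted p = 0.0254 by limma). Leaving it out of the totals shifted the median of all tested entries by -0.26. Trimmed-mean and median-of-ratios scaling, which shift that median by -0.26 and -0.24, left miR-28-5p at -0.059 and -0.038 and uncalled (adjusted p = 0.650 and 0.808).

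Both 3p arms were lower with AA2P under these 2 scalings. miR-28-3p had a log2 fold change of -0.35 (95% interval -0.492 to -0.218; adjusted p = 0.00969) with trimmed-mean scaling and of -0.33 (adjusted p = 0.0135) with median-of-ratios scaling. miR-151-3p had a log2 fold change of -0.48 (95% interval -0.722 to -0.229; adjusted p = 0.0211) with trimmed-mean scaling and of -0.45 (adjusted p = 0.0324) with median-of-ratios scaling. With trimmed-mean scaling the call of miR-28-3p held with any 1 library left out (adjusted p = 0.0244 to 0.0381). That of miR-151-3p ended without control replicate 1 (adjusted p = 0.0645), control replicate 2 (0.0576) or AA2P replicate 3 (0.0583). Over all entries 11.5% were called lower under each of these scalings, and 10.9% and 11.1% higher. With miR-21-5p, the most abundant miRNA of these cells, left out of the totals, miR-28-3p was also called lower (-0.36, adjusted p = 0.0305), and miR-151-3p was not (-0.48, adjusted p = 0.0586). Of all entries 9.93% were called lower there. With quantile normalization (19.4% called in all) and with totals that omit the 10 most abundant miRNAs (21.0%), 0 of the 4 members were called by limma. With quantile normalization miR-28-3p and miR-151-3p were at -0.057 and -0.25 (adjusted p = 0.529 and 0.204 by limma). With the 10 most abundant omitted they were at -0.26 and -0.38 (adjusted p = 0.0621 and 0.0910 by limma). miR-151-5p was not called under any of the 6 scalings.

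**Figure D2:**
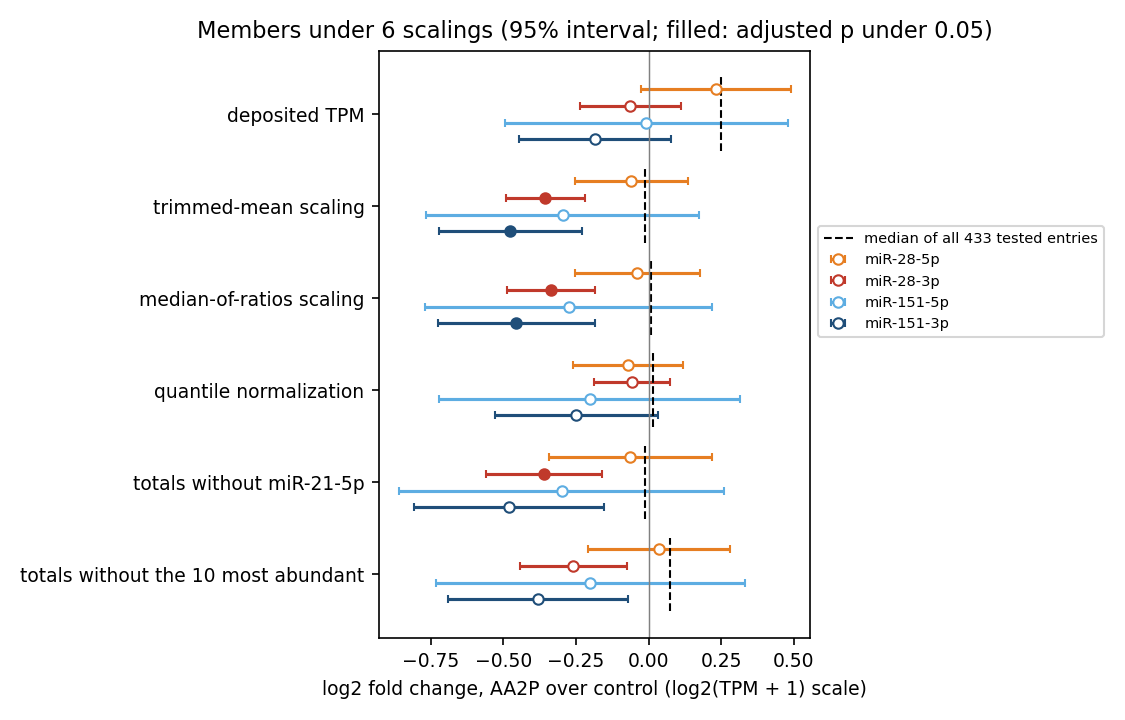
log2 fold change, AA2P over control, of the 4 tested members under 6 ways of scaling the libraries, with 95% intervals, filled points for an adjusted p under 0.05 and a dashed line for the median of all tested entries. In the deposited TPM all 4 intervals include 0, while the points of all 4 members lie below the median of all entries under all 6 scalings shown.

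Scaling cancels in the ratio of the arms of a hairpin, which was compared over all 39 hairpins with both arms at a mean of at least 10 TPM. Both miR-28 and miR-151 were read mostly as the 3p arm. For miR-28, the 5p arm gave 10.9, 9.88 and 9.61% of the hairpin's reads in the AA2P libraries, against 8.16, 8.44 and 8.62% in the control libraries. The lowest AA2P share lay above the highest control share. For miR-151, the 5p arm gave 2.40, 1.79 and 2.03% in the AA2P libraries, against 1.74, 1.92 and 1.83% in the control libraries, and the groups overlapped. The exact 95% binomial intervals of these shares reached 0.0789 to 0.195 percentage points to each side. For both hairpins, libraries therefore differed by more than counting error within the AA2P group and within the control group.

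**Figure D3:**
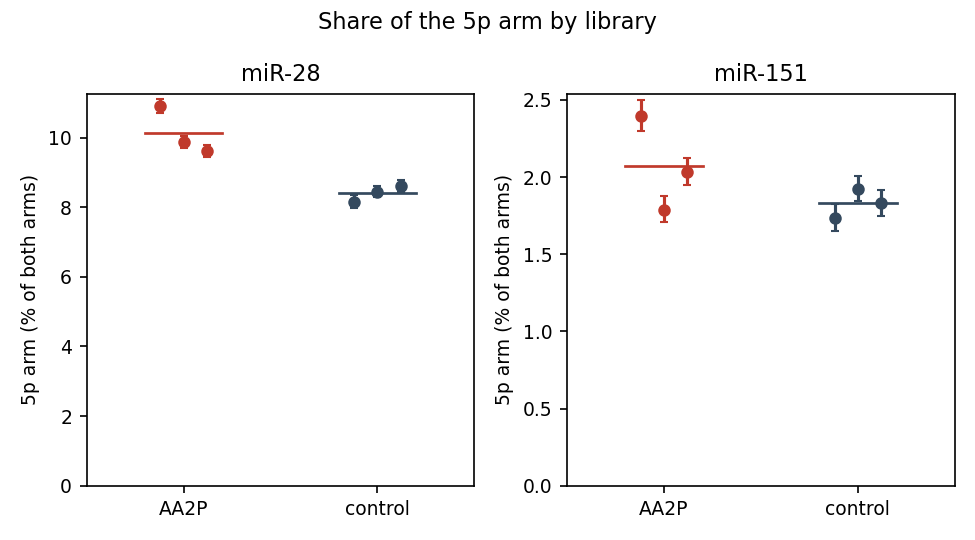
Share of the 5p arm in the reads of both arms (percent, from 0) of miR-28 and miR-151 in each library, AA2P left of control, with exact 95% binomial intervals and bars for group means. The AA2P libraries of miR-28 lie between 9.61 and 10.9% and the control libraries between 8.16 and 8.62%, while those of miR-151 overlap.

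For miR-28 the log2 of 5p over 3p was -3.15 ± 0.107 with AA2P and -3.44 ± 0.0433 in controls (SD, n = 3 each). The difference of 0.30 on the log2 scale (SE 0.127, 95% interval 0.018 to 0.572) had an unadjusted p of 0.0387 and an adjusted p of 0.277 by limma, and so did not pass. It ranked 3 of 39 by p. For miR-151 it was -5.55 ± 0.210 with AA2P and -5.72 ± 0.0741 in controls (SD, n = 3 each), a difference of 0.18 (SE 0.142, 95% interval -0.134 to 0.484; adjusted p = 0.587). Without AA2P replicate 1 the difference for miR-151 was 0.066. Of the 39 hairpins, 0 were called by limma, 10.3% had an unadjusted p under 0.05, and 23.1% had groups that did not overlap. The 3p arm prevailed in controls in 18 of the 39, and by this ratio miR-151 ranked 3 and miR-28 ranked 8 from the most 3p-biased.

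**Figure D4:**
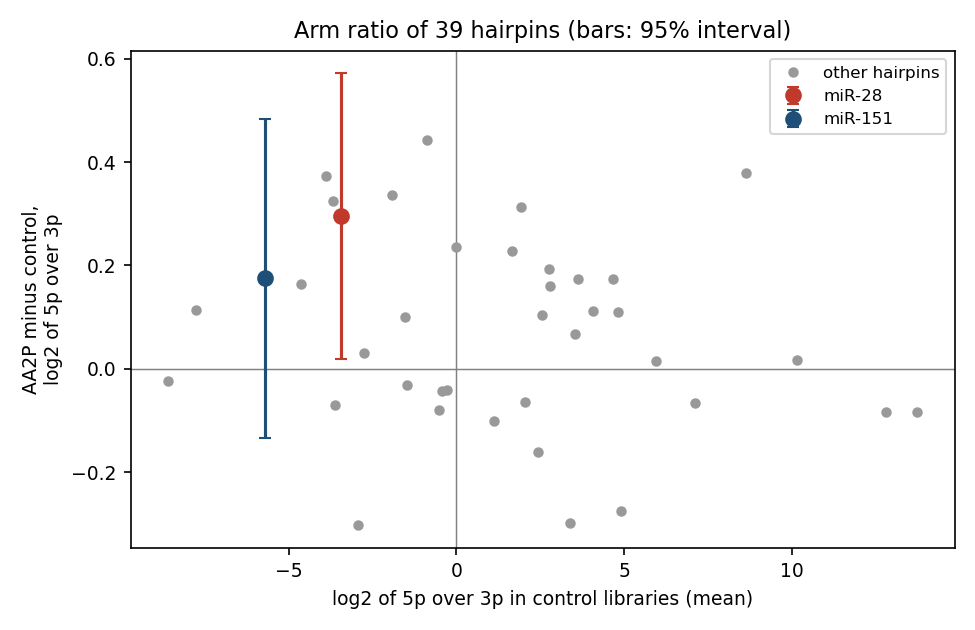
Difference in log2 of 5p over 3p, AA2P minus control, against the mean of that log2 ratio in control libraries for 39 hairpins, with 95% intervals for miR-28 and miR-151. Both lie to the left, where the 3p arm prevails, with differences of 0.30 and 0.18.

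Members of different host genes were then compared within libraries, arm by arm. The log2 ratio of miR-151-3p (host PTK2) to miR-28-3p (host LPP) was -0.0041, -0.21 and -0.035 in the AA2P libraries, against 0.017, 0.11 and -0.017 in the control libraries. The groups overlapped, and the difference of -0.12 gave p = 0.2 in a two-sided exact permutation test. The log2 ratio of miR-151-5p to miR-28-5p was -2.31, -2.77 and -2.37 in the AA2P libraries, against -2.29, -2.10 and -2.33 in the control libraries, a difference of -0.24 (p = 0.2, two-sided exact permutation test). Adjusted over these 2 pairs both p-values were 0.2, and 3 against 3 libraries allow no p under 0.1. Without AA2P replicate 2 the differences were -0.058 for the 3p arms and -0.097 for the 5p arms. Without AA2P replicate 1 they were -0.16 and -0.33. Pairs with a miR-708 arm were not compared, since its levels lie under the added 1 TPM, which would fix the ratio. A difference in response between the LPP-hosted and the PTK2-hosted miRNA was thus not shown, beside SDs of the 3p log2 ratio of 0.110 with AA2P and 0.0677 in controls.

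The profiles nearest to the leading arms over the 6 libraries were sought among 202 known miRNAs of other hairpins with a mean of at least 10 TPM. Nearest to miR-28-3p was miR-139-5p, with a root-mean-square difference of 0.0235 on the centred log2 scale, at 1667 ± 84.8 TPM with AA2P and 1787 ± 82.8 TPM in controls. It was followed by miR-7134-3p (0.0438) and miR-378 (0.0546). Nearest to miR-151-3p were miR-378 (0.0670), miR-1842 (0.0671) and miR-10384 (0.0902). None of these 5 miRNAs was called in the deposited TPM by limma (adjusted p = 0.335 to 0.771). They were chosen for profiles close to those of uncalled arms in the same libraries, so this is no separate result.

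The members were last set beside other miRNAs of like origin. Of 43 tested entries hosted by introns of protein-coding genes in human, 11 rose and 2 fell with AA2P (30.2% called, against 24.7% of all tested entries), with a median log2 fold change of 0.25, the same as over all tested entries (0.25). By mean TPM over all 6 libraries the most abundant were miR-27b-3p (10364 ± 1349 TPM with AA2P and 8537 ± 79.1 TPM in controls), miR-26a, miR-103 and miR-191, none of them called. The rises were those of miR-32 (log2 fold change 1.10), miR-190a (0.66), miR-107 (0.60), both arms of miR-425 (0.59 for 5p and 0.40 for 3p), miR-499-5p (0.58), miR-500-5p (0.48), miR-362 (0.42), both arms of miR-148b (0.42 for 5p and 0.31 for 3p) and miR-330 (0.31). miR-152 (-0.67) and miR-335 (-0.71) fell. With trimmed-mean scaling 4 of the 43 were called higher and 8 lower, where 10.9% and 11.5% of all tested entries were, and of the 13 calls those of miR-32 and miR-335 held under all 5 other scalings. Of 8 tested entries placed in LINE-2 elements in human other than the family, miR-374a-3p (0.29), miR-374b-3p (0.50) and miR-421-3p (0.46) rose, 0 fell, and the median was 0.29 (37.5% called, where 19.9% of all tested entries were called higher); under each of the 5 other scalings 0 of the 8 were called by limma. The most abundant of these, miR-374b-5p, stood at 578 ± 21.0 TPM with AA2P and 495 ± 54.2 TPM in controls and was not called, and neither was miR-374a-5p. The 4 tested members had a median log2 fold change of -0.036.

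**Figure D5:**
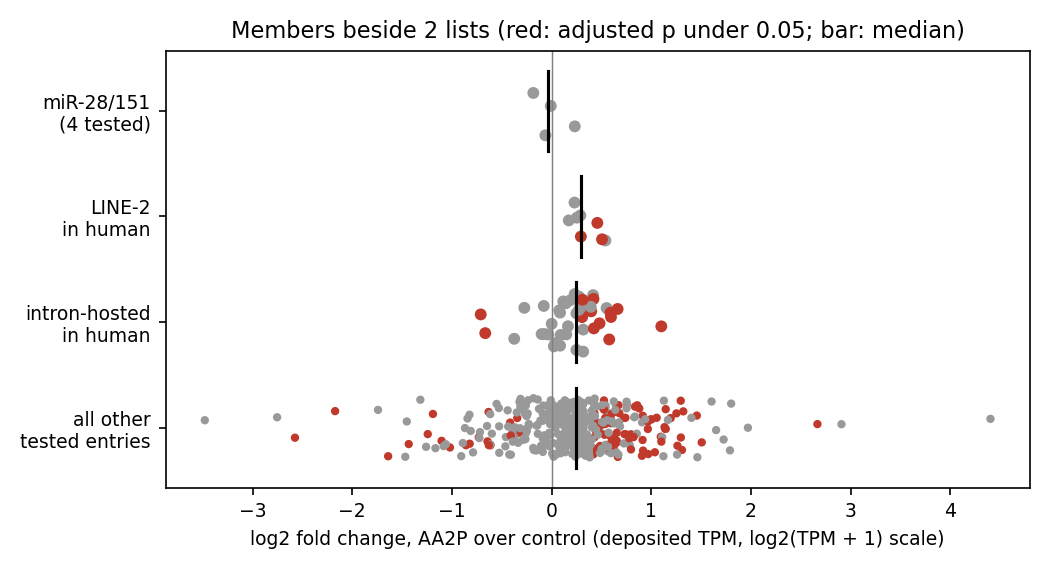
log2 fold change, AA2P over control, in the deposited TPM for the 4 tested members, the 8 LINE-2 entries, the 43 intron-hosted entries and all other tested entries, in red where the adjusted p was under 0.05, with bars for medians. The members spread around 0, and 1 of 4, miR-28-5p, lies near the medians of the other groups.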

How the data were processed

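Small RNA of 3 AA2P and 3 control libraries of pig immature Sertoli cells was analysed. The authors deposited 1 table of TPM with 2 decimals for all libraries, and all columns sum to the same total over known and predicted entries. Bowtie is the tool named, per the submitters' processing notes. Not given in the sources used here are its version and settings, the build, the miRNA annotation and how reads common to several entries were assigned. The members and lists were chosen with earlier results of these data known, and no list is independent evidence.

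The 433 entries that reached 1 TPM in 3 or more of the 6 libraries were tested on log2(TPM + 1), a scale that understates changes of low entries, by limma 3.58.1 in R 4.3.3 with a mean-variance trend, two-sided, with Benjamini-Hochberg adjustment over all of them and calls at 0.05. Arm ratios were fitted by limma without a trend over 39 hairpins. Ratios between miR-151 and miR-28 had an exact permutation test; pairs with miR-708, first planned too, were left out, as its levels lie under the pseudocount. Depths come from the step between low values, and at 10 TPM a value rests on at least 258 reads. The values were tested as TPM, and no count test was run.

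The names given are all members, the 3 nearest profiles for miR-28 and miR-151, and, from the comparison lists, the 4 most abundant entries and all called ones. For the cell type markers, sums and the leading entries are given instead. Nearest profiles were not sought for miR-708, which rests on too few reads. Alternatives were other pseudocounts, filters and scalings, known miRNAs alone, no trend, a replicate block and leaving out each library.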

Additional observations from a re-analysis of the deposited data

How the results depend on the processing

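No member was called in the deposited TPM under another pseudocount, another filter, known miRNAs only, no trend, a replicate block or with any 1 library left out. Scaling mattered most. miR-28-3p was called lower with trimmed-mean scaling (-0.35), with median-of-ratios scaling (-0.33) and without miR-21-5p in the totals (-0.36), and miR-151-3p with trimmed-mean (-0.48) and median-of-ratios scaling (-0.45). With trimmed-mean scaling and any 1 library left out, an alternative added after the data were seen, miR-28-3p was at -0.39 to -0.32 and miR-151-3p at -0.53 to -0.40. miR-28-5p, at 0.23 as deposited, was at -0.059 (trimmed mean), -0.038 (median of ratios), -0.071 (quantile normalization) and -0.063 (miR-21-5p left out). miR-151-5p, near 0, changed sign without control replicate 2 (0.08), AA2P replicate 2 (0.17) or AA2P replicate 3 (0.0066), with a range of -0.20 to 0.17 over left-out libraries. The cause of these changes was not tested. By construction, each scaling except quantile normalization changes all entries of a library by the same factor, which leaving out a library does not.

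The family sum, AA2P minus control, was -477 TPM as deposited, -1840 with trimmed-mean scaling, -1743 with median-of-ratios scaling, -1838 with totals without miR-21-5p and -1389 with totals without the 10 most abundant; these 4 settings were added after the data were seen, as were the left-out libraries for this sum (-768 to -287).

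Over all entries 107 were called (86 higher and 21 lower), with 47 and 50 under trimmed-mean scaling, 48 and 50 under median-of-ratios scaling, 44 and 40 under quantile normalization, 39 and 43 without miR-21-5p in the totals, 55 and 36 without the 10 most abundant, and 48 and 9 (57 in all) with no filter. With any 1 library left out 62 to 98 were called, 54 to 78 higher and 8 to 20 lower; the lowest count was without control replicate 3. With the replicate block 63 were called (52 higher and 11 lower). Same-numbered libraries deviated together with correlations of 0.29, 0.06 and 0.18, not all over 0.1, and every library but control replicate 2 correlated best with its own number. This is a hint from the data, not the design, so the numbers were not taken as pairs.

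The arm ratio of miR-28 kept its direction and stayed uncalled in all 12 alternatives run (0.23 to 0.34 over left-out libraries; 0.30 with an adjusted p of 0.503 in the replicate block). Without control replicate 2, 3 other hairpins were called, and 0 without any other library. The arm ratio of miR-151 was 0.066 to 0.28 over left-out libraries. Both ratios between hairpins kept their sign in all 8 alternatives run, at -0.33 to -0.097 for the 5p arms and -0.16 to -0.058 for the 3p arms over left-out libraries. Depth limits only miR-708, at 1 to 10 reads a library.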
